A study of Mus musculus with 6 samples.

Results

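The circadian clock genes considered here were Arntl, Clock, Per1, Per2, Per3, Cry1, Cry2, Nr1d1, Nr1d2 and Dbp. They were taken by name from a list, and all 10 had a probe set of their own among the 19926 genes tested. RNA came from primary astrocytes of C57BL/6J mice, an inbred strain, kept in culture. Of the 6 samples, 3 were controls and 3 had received tumour necrosis factor (TNF), an inflammatory cytokine, at 50 ng/mL. Both groups were collected at 24 h, and the sources used here give neither the animals' age nor how controls were handled. Each sample was hybridised to 1 Mouse Gene 1.0 ST array, and the values are log2 signals after RMA, an array normalization. The number of arrays limits the precision. No label states whether replicates came from different cultures or animals, and p-values therefore cover the spread among these 6 samples and may hold technical error only.

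The mammalian clock is a feedback loop of transcription. CLOCK and BMAL1, the product of Arntl, bind E-box elements and switch on the Per, Cry, Nr1d and Dbp genes; PER and CRY proteins then block CLOCK and BMAL1, and the NR1D (REV-ERB) receptors repress Arntl at sites that the activating ROR receptors share. DBP and its relatives drive genes with D-box elements, Per3 among them, while NFIL3 represses from the same elements. Astrocytes carry such a clock, in the brain and in culture. Both groups were sampled at a single time, so a shift in phase, a change in amplitude and a change in mean level cannot be told apart in these data.

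Promoter sequences are shown for Per3 and Nr1d1, the members called lower without a replicate block, and for Per1 and Cry1, members with an E-box that were not called. Of the 10 members 9 had an entry among the RefSeq promoter windows (GRCm38.p6), with 13 windows in all, and the 250 bases before each annotated start were searched on both strands. Capitals mark the E-box CACGTG, its variant CACGTT and the D-box TTATGTAA. The variant stands on the other strand in Nr1d1 and Cry1, where its letters are AACGTG, and no matches overlapped in these windows. The lines below run 5′ to 3′ on the strand of the gene and end at the base before the start.
Per3, chr4:151044666-151044915, minus strand: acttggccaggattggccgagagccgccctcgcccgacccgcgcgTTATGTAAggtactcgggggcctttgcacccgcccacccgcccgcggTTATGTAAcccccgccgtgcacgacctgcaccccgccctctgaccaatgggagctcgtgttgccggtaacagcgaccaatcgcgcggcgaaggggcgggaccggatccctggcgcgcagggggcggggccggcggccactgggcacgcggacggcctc
Nr1d1, chr11:98775378-98775627, minus strand: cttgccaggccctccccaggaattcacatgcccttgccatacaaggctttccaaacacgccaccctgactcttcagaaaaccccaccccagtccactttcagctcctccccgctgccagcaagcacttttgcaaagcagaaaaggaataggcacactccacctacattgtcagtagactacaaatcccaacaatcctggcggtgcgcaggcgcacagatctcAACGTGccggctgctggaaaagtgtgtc
Per1, chr11:69098699-69098948, plus strand: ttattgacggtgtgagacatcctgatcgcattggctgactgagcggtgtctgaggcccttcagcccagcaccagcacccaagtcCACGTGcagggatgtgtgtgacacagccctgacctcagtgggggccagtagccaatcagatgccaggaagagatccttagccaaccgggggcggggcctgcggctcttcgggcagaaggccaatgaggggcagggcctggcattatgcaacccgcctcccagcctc
Cry1, chr10:85185055-85185304, minus strand: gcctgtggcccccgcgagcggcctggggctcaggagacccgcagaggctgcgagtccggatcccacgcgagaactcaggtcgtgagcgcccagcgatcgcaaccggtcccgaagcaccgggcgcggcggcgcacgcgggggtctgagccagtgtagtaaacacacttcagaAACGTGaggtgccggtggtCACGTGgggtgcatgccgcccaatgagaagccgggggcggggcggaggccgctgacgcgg

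The Per3 window holds the D-box letters at 205 and 158 bases before the start. A single D-box match was already uncommon, being present in 0.819% of 32851 windows, and 2 or more matches were present in 6 windows, or 0.0183%. CACGTG stands at 166 bases before the start in Per1 and at 60 in Cry1, against a share of 6.02% of all windows, and CACGTT at 28 in Nr1d1, 79 in Cry1 and 166 in Cry2, against 3.85%. The half-site of ROR and NR1D receptors, AGGTCA, was found in windows of Clock, Per1 and Nr1d2 and in 14.0% of all windows, the NF-kB motif in a Clock window and in 3.90%, and the cAMP response element TGACGTCA in no member and in 1.55%. None of these motifs was found in the windows of Arntl or Dbp. A match describes letters and not binding.

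Of the 10 clock genes 2 fell with TNF and none rose at an adjusted p under 0.05 (limma). These were the repressor genes Nr1d1 and Per3, which fell by 0.72 and 0.52 on the log2 scale. The 2 called of 10 stand beside 3.33% of all genes tested that were called lower. Samples with the same replicate number deviated together from their group means, and with the number as a block 5 members were lower, namely Nr1d1, Per3, Dbp, Clock and Nr1d2, beside 11.8% of all genes. In these 5 genes the groups did not overlap, with TNF below control, which held for 11.7% of all genes. The log2 difference was below 0 in 10 of 10 members and in 50.6% of all genes, and it was below 0 in all 3 pairs for 8 members and for 26.9% of all genes. The median difference was -0.29 over the members and -0.003 over all genes. Leaving out 1 array ended the call of Nr1d1 in each of 6 fits (adjusted p from 0.0575 to 0.106) and that of Per3 in 5 (highest adjusted p = 0.178, without control 1), and both were lost when all probe sets were put in the fit (adjusted p = 0.0789 and 0.103).

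**Figure D1:**
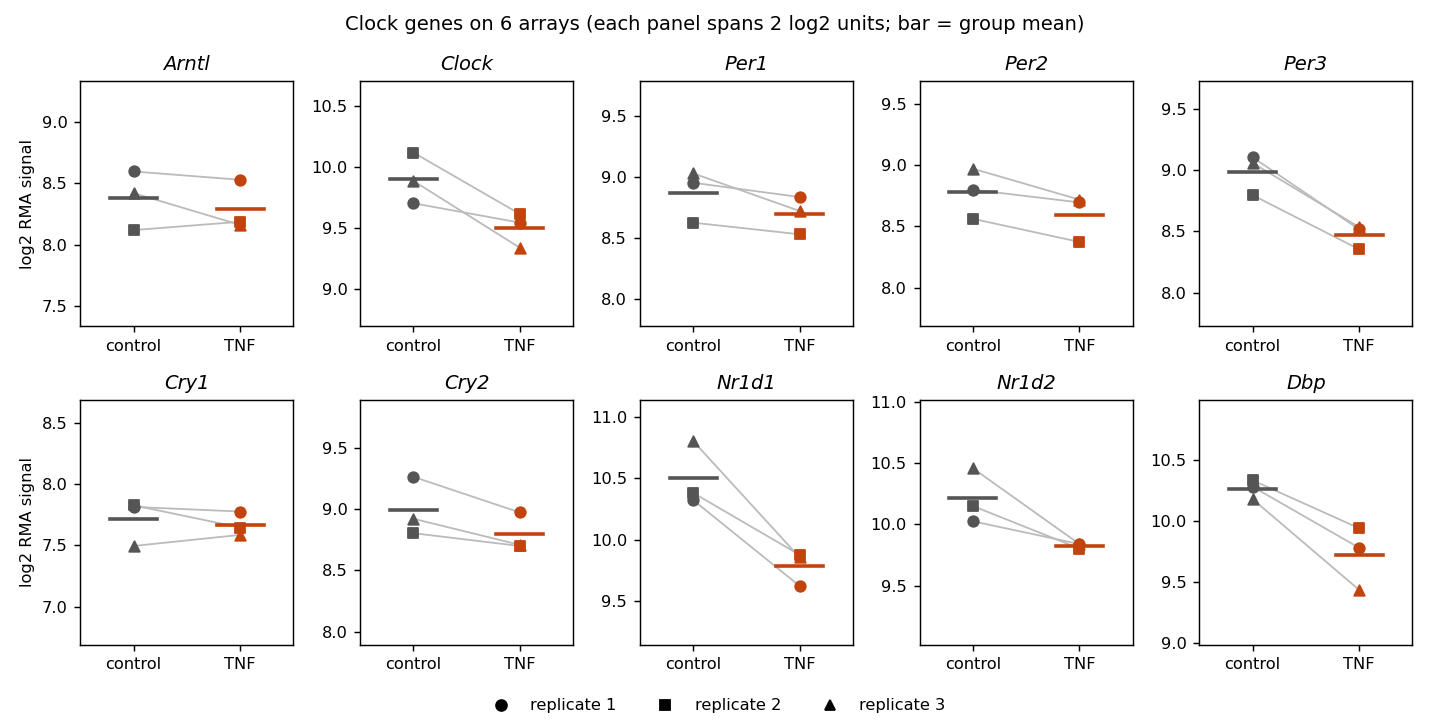
Log2 RMA signal (vertical axis, 2 log2 units in each panel) of the 10 clock genes in control (grey) and TNF (orange) samples; lines join samples of the same replicate number and bars are group means (n = 3). All 3 TNF samples lie below all 3 controls for Clock, Per3, Nr1d1, Nr1d2 and Dbp, and the groups overlap for the other 5 genes.

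Nr1d1 encodes REV-ERB alpha, a nuclear receptor that silences Arntl. Its log2 signal was 10.32, 10.38 and 10.81 in controls 1, 2 and 3; with TNF it was 9.62, 9.88 and 9.85, in the same order of replicate numbers, as in all such sentences here. The groups did not overlap, and control 3 was the highest array. The difference was -0.72 (95% confidence interval -1.08 to -0.36, SE 0.16, limma adjusted p = 0.0334), 1.65-fold lower, and in the blocked fit the adjusted p was 0.00259. By pair it was -0.70, -0.51 and -0.95. The RefSeq gene table places Thra, a thyroid hormone receptor gene read from the opposite strand, across part of the Nr1d1 locus. The Thra probe set was 11.22 ± 0.15 in controls and 10.63 ± 0.05 with TNF (mean ± SD, n = 3 per group), a difference of -0.59 with adjusted p = 0.0216. Whether signal is shared between the neighbouring probe sets was not tested.

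Nr1d2, which encodes the related REV-ERB beta, had log2 signals of 10.03, 10.15 and 10.46 in controls and 9.84, 9.80 and 9.84 with TNF. The TNF samples lay within 0.04 of each other while the controls spread over 0.43, again with control 3 the highest. The difference was -0.38 (SE 0.13, 1.31-fold lower), with adjusted p = 0.159 in limma without the block and 0.0336 with it.

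The 3 Period genes encode the repressors that bind CRY proteins. Per3 was 9.11, 8.80 and 9.06 in controls and 8.52, 8.35 and 8.53 with TNF. The groups did not overlap, and replicate 2 was the lowest in both. The difference was -0.52 (95% confidence interval -0.81 to -0.23, SE 0.13, limma adjusted p = 0.0494), 1.43-fold lower, and the block gave adjusted p = 0.0037. The call without the block sits at the threshold and was lost after centring each array on its median (adjusted p = 0.0647) and after renewed quantile normalization (0.0585).

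Per1 and Per2, which respond quickly to cAMP and glucocorticoid signals, were closer between the groups. Per1 was 8.95, 8.63 and 9.03 in controls and 8.84, 8.53 and 8.72 with TNF, a difference of -0.17 (95% confidence interval -0.51 to 0.16, limma adjusted p = 0.67; 0.204 with the block). Per2 was 8.80, 8.56 and 8.97 in controls and 8.70, 8.37 and 8.72 with TNF, a difference of -0.18 (95% confidence interval -0.53 to 0.17, adjusted p = 0.665; 0.16 with the block). Both were lower in 3 of 3 pairs by no more than 0.31, and the groups overlapped, since control 2 lay below TNF 1 and TNF 3.

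Dbp encodes an activator of the PAR bZIP family and is a direct target of CLOCK and BMAL1. Its log2 signal was 10.28, 10.33 and 10.18 in controls and 9.78, 9.94 and 9.44 with TNF. The controls were tight, the TNF samples were more spread, and the groups did not overlap. The difference was -0.54 (95% confidence interval -0.89 to -0.20, SE 0.15, 1.46-fold lower), with limma adjusted p = 0.0731 without the block and 0.00618 with it.

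Of the activators, Clock passed as lower with the block and Arntl passed in neither fit. Clock was 9.70, 10.12 and 9.89 in controls and 9.54, 9.62 and 9.34 with TNF. Control 1 came within 0.09 of the highest TNF sample, and the groups did not overlap. The difference was -0.40 (SE 0.14, 1.32-fold lower), with limma adjusted p = 0.165 without the block and 0.027 with it. Arntl was 8.60, 8.12 and 8.42 in controls and 8.53, 8.19 and 8.16 with TNF, so the groups covered much the same range. Its difference of -0.09 (95% confidence interval -0.47 to 0.29, adjusted p = 0.915; 0.582 with the block) was smaller than the spread within either group.

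The Cryptochrome genes encode the partners of the PER repressors. Cry1 was 7.81, 7.83 and 7.49 in controls and 7.78, 7.65 and 7.59 with TNF, a difference of -0.04 (95% confidence interval -0.34 to 0.26, limma adjusted p = 0.958). Its sign turned without control 1, without control 2 or without the pair of replicate 2. That of Arntl turned without control 1 or without the pair of replicate 3. Cry2 was 9.26, 8.80 and 8.92 in controls and 8.97, 8.70 and 8.71 with TNF, a difference of -0.20 (95% confidence interval -0.56 to 0.15, adjusted p = 0.611; 0.128 with the block). Cry2 was lower in 3 of 3 pairs, but the groups overlapped through the high TNF 1.

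Accessory loop factors moved both ways. Of 12 listed genes 10 were measured, and 3 were lower and 2 higher at an adjusted p under 0.05 (limma), beside 3.33% lower and 3.87% higher over all genes; 4 were lower and 2 higher with the block, beside 11.8% and 9.73%. The median difference was -0.18, with 6 members below 0.

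The ROR receptors, which activate Arntl from the sites that NR1D receptors repress, were lower. Rorb was 8.60, 8.56 and 8.43 in controls and 7.64, 7.65 and 7.19 with TNF. The groups lay 0.79 or more apart, the widest gap among the clock genes and accessory factors that fell. The difference was -1.04 (SE 0.15, 2.05-fold lower, limma adjusted p = 0.00588). Rora fell by 0.59 (SE 0.11, adjusted p = 0.0199), from 9.08 ± 0.09 to 8.49 ± 0.12 (mean ± SD, n = 3 per group). The Rorb call held in all 6 fits without 1 array and that of Rora in 3 (highest adjusted p = 0.0816, without control 1).

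Among the factors that bind D-boxes, 1 rose and 1 fell without the block. Nfil3, the D-box repressor, was 7.97, 7.82 and 7.58 in controls and 8.84, 8.44 and 8.49 with TNF, a rise of 0.80 (SE 0.16, 1.74-fold, limma adjusted p = 0.0208). Hlf, an activator of the Dbp family, was 7.89, 7.85 and 7.61 in controls and 7.18, 7.30 and 7.03 with TNF, and fell by 0.61 (SE 0.13, adjusted p = 0.0281). The third activator, Tef, differed by -0.22 and did not pass either fit (adjusted p = 0.377; 0.12 with the block). Among the fits without 1 array the Nfil3 call was lost in 3 (highest adjusted p = 0.0717, without control 3) and the Hlf call in 5 (0.117, without control 1).

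Bhlhe40 and Bhlhe41 encode DEC1 and DEC2, repressors that compete for E-boxes. Bhlhe40 was 8.83, 8.84 and 8.88 in controls and 10.03, 9.86 and 10.06 with TNF. The controls differed by 0.06 or less, and the rise of 1.13 (SE 0.11, 2.19-fold, limma adjusted p = 8.07e-04) held in all 6 fits without 1 array. Bhlhe41 was 9.09, 8.90 and 9.15 in controls and 8.62, 8.68 and 8.21 with TNF, a difference of -0.55 (adjusted p = 0.0817; 0.0264 with the block). Ciart, a further repressor of CLOCK and BMAL1, differed by 0.16, Arntl2, a relative of Arntl, by 0.18 and Timeless by -0.14, and none of these passed in either fit.

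**Figure D2:**
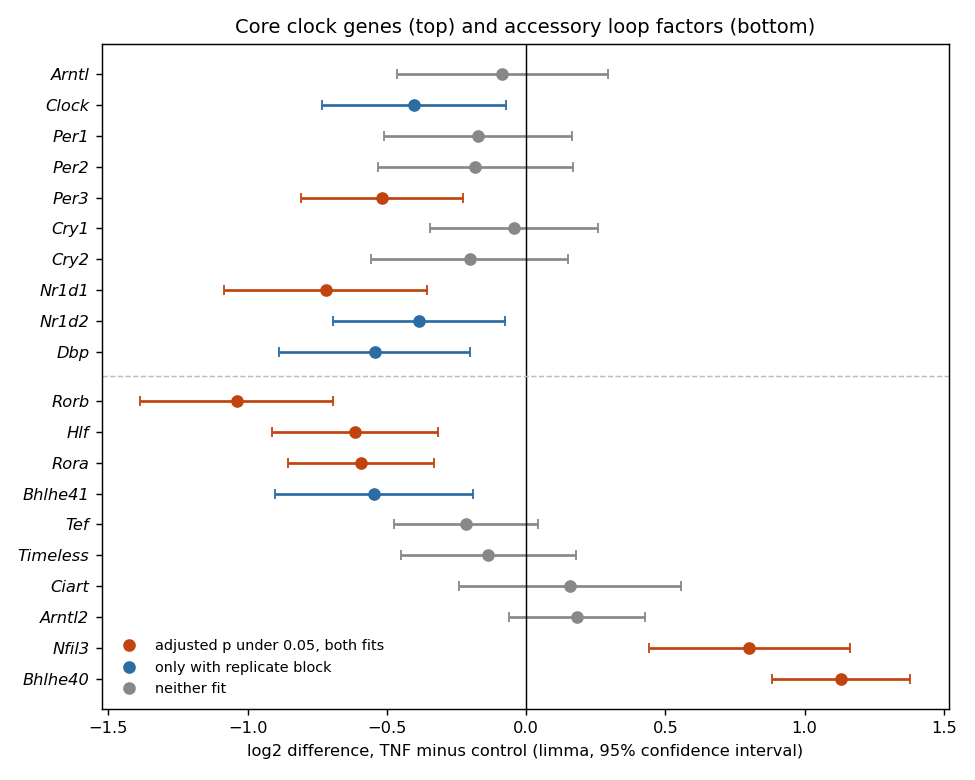
Log2 difference, TNF minus control (horizontal axis), with 95% confidence intervals from limma, for the 10 core clock genes above the dashed line and the 10 measured accessory factors beneath it; colour gives the fit in which a gene passed. All 10 core genes lie left of 0, while Bhlhe40 at 1.13 and Nfil3 at 0.80 stand to the right.

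Ratios set related genes against each other on the same array, from the quantile normalized values. The 8 pairs were chosen after the gene values were known and are a description only, since an exact two-sided permutation test of 3 against 3 samples cannot go below p = 0.1. The groups did not overlap in 6 of the 8 ratios, and no share over other gene pairs was computed. Among the 19926 single genes, all TNF samples lay below all controls in 2331 and above them in 2443. The log2 ratio of Per3 over Per1 was 0.15, 0.17 and 0.03 in controls and -0.32, -0.18 and -0.19 with TNF, a shift of -0.35. That of Per3 over Per2 shifted by -0.34 and that of Nr1d1 over Nr1d2 by -0.34, and in each of these ratios all 3 TNF arrays lay below all 3 control arrays. Rorb over Rora shifted by -0.45.

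The largest of the 8 shifts were those of Bhlhe40 over Bhlhe41 and of Nfil3 over Dbp. Bhlhe40 over Bhlhe41 went from -0.26, -0.06 and -0.27 in controls to 1.41, 1.18 and 1.85 with TNF, a shift of 1.68. Nfil3 over Dbp, the repressor against the activator at D-boxes, shifted by 1.35 and in each pair by 1.01 or more. Clock over Arntl (shift -0.32) and Cry2 over Cry1 (-0.16) overlapped between the groups.

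**Figure D3:**
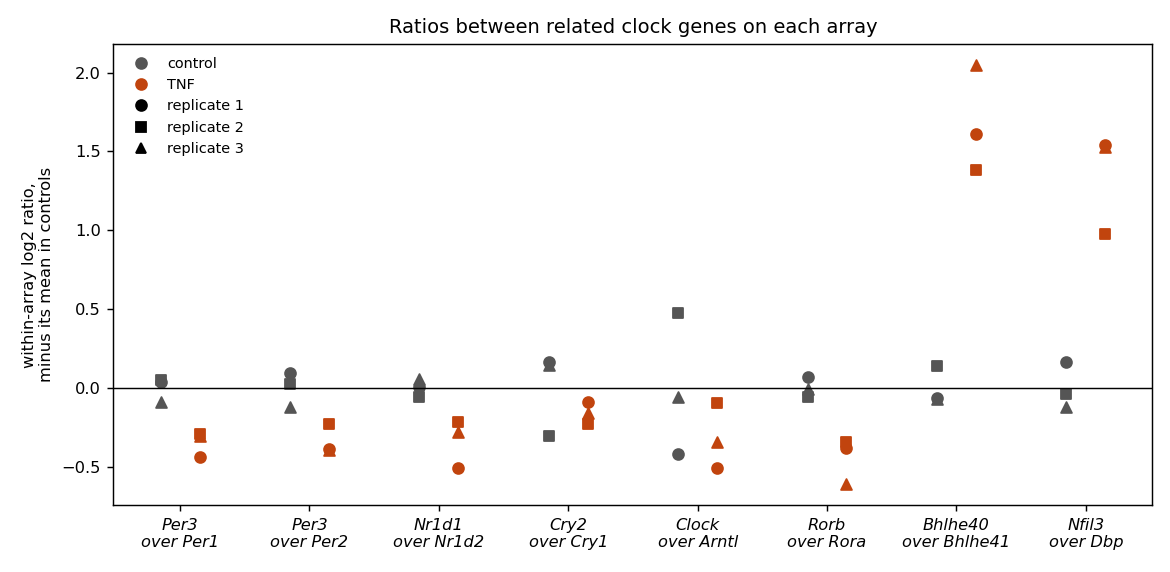
Within-array log2 ratio of 8 pairs of related genes, minus the mean of that ratio in controls (vertical axis), for 3 control (grey) and 3 TNF (orange) arrays, with a symbol for each replicate number. Groups are separate for 6 ratios and overlap for Cry2 over Cry1 and Clock over Arntl, in pairs chosen after the gene values were known.

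Genes that act on clock proteins gave no call without the block. Of 12 listed kinases and turnover genes 11 were measured and none passed in limma without the block. At an unadjusted p under 0.05, 2 were lower and 1 higher, beside 1938 lower and 1824 higher of all 19926 genes. With the block, which called 11.8% of all genes lower and 9.73% higher, 1 of the 11 was lower and 1 higher. With it Gsk3b, a kinase of several clock proteins, was lower (log2 difference -0.35, adjusted p = 0.0229) and Fbxl21, a ubiquitin ligase subunit that binds CRY, was higher (0.46, adjusted p = 0.0364). The casein kinases Csnk1d and Csnk1e, which phosphorylate PER, differed by 0.07 and -0.07. Of 10 measured coactivators and corepressors none passed without the block. At an unadjusted p under 0.05, 2 of them were lower and none higher, beside the same 1938 and 1824 of all 19926 genes. With the block Ppargc1a, a coactivator of ROR receptors, was lower (-0.65, adjusted p = 0.00653), as was Ezh2, a histone methyltransferase (-0.39, adjusted p = 0.0204).

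Clock-controlled output genes, a list that shares 7 genes with those above, rose in 3 and fell in 1 of 13 measured members, beside 3.87% higher and 3.33% lower over all genes, with a median of 0.09. With the block 3 were higher and 2 lower, beside 9.73% and 11.8%. Besides Bhlhe40, Nfil3 and Hlf, the call was Nampt, which makes NAD and cycles with the clock in other tissues. Nampt was 9.67, 9.67 and 9.33 in controls and 10.32, 10.65 and 10.29 with TNF, a rise of 0.86 (SE 0.15, limma adjusted p = 0.0139), and its call held in all 6 fits without 1 array. Usp2, a ubiquitin protease under E-box control, differed by -0.26 (adjusted p = 0.256; 0.0576 with the block) and Wee1, a cell cycle kinase, by -0.05.

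Genes induced by cAMP and glucocorticoids, inputs that also act on Per1, fell in 3 and rose in 1 of 11 measured members, beside 3.33% and 3.87% of all genes, and the median was -0.43. With the block 6 were lower and 1 higher, beside 11.8% and 9.73%. Sik1, a kinase that restrains the cAMP response, was 7.70, 7.90 and 7.92 in controls and 9.44, 9.59 and 9.77 with TNF, a rise of 1.76 (SE 0.13, 3.39-fold, limma adjusted p = 2.23e-04). The immediate early genes Fos and Nr4a1 fell by 1.15 and 0.80 (adjusted p = 0.0296 and 0.0283) and Dusp1, a MAP kinase phosphatase, fell by 0.84 (adjusted p = 0.0281). Each of these 3 falls kept its call in 1 of the 6 fits without 1 array, with highest adjusted p of 0.11 and 0.108 without control 1 and 0.0948 without control 3. Egr1, a further immediate early gene, had the largest negative difference of the list at -1.23. It did not pass in limma without the block (adjusted p = 0.0873) and passed with it (2.20e-04). With arrays weighted in limma and no block Egr1 also passed (adjusted p = 0.0475). With the block Sgk1 at -0.63 and Klf9 at -0.43, glucocorticoid targets, also passed (adjusted p = 0.0173 and 0.00821), while Tsc22d3 at -0.24 and Fkbp5 at 0.01, which respond to the same hormones, passed in neither fit.

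**Figure D4:**
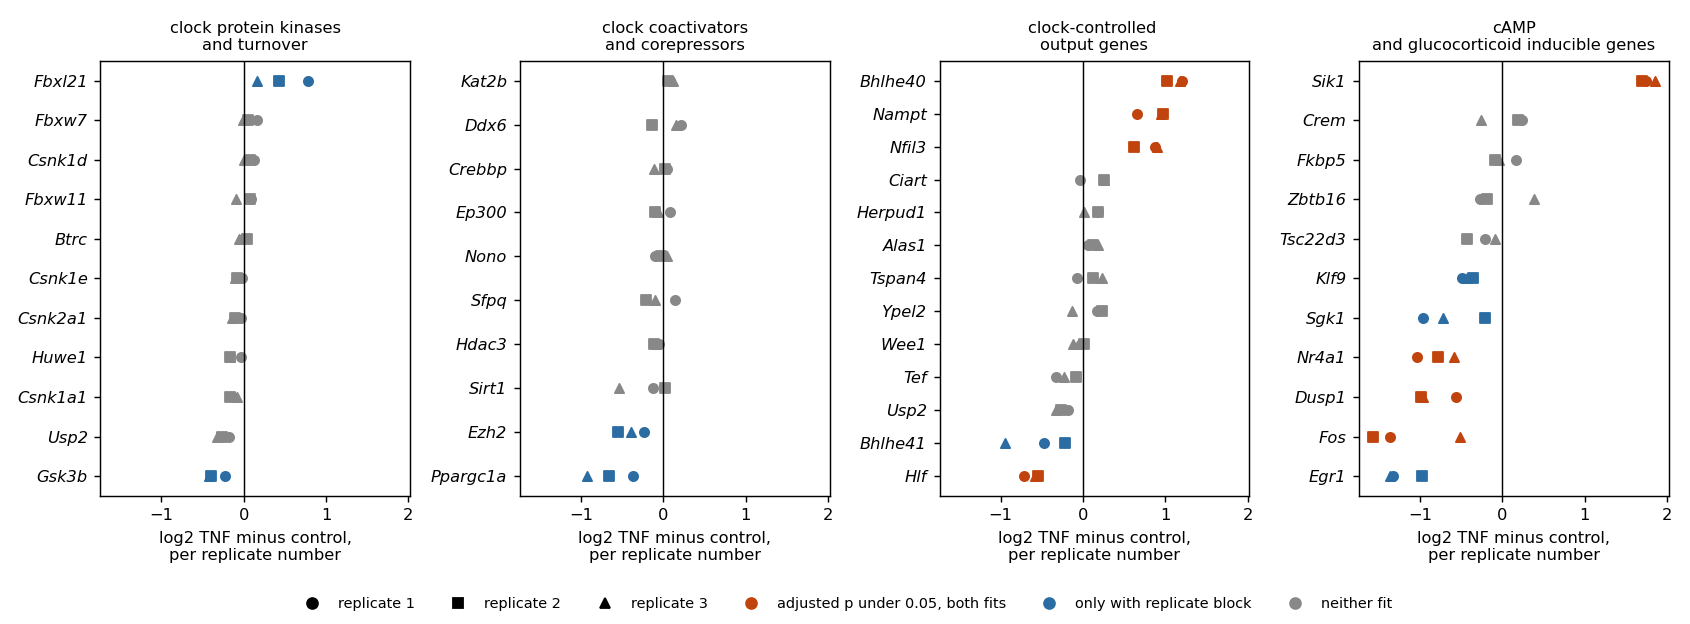
Log2 difference, TNF minus control, of each replicate number (horizontal axis, 3 symbols per gene) for the 4 lists of genes that act on or follow the clock; colour gives the fit in which a gene passed. Among kinases and coactivators the mean differences run from Ppargc1a at -0.65 to Fbxl21 at 0.46, while Sik1 at 1.76 and Egr1 at -1.23 mark the ends of the cAMP and glucocorticoid list by mean difference.

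The replicate number was tested as well. In a limma F test of the number, with the group in the fit, no clock gene passed at an adjusted p under 0.05, beside 23.0% of all genes. At an unadjusted p under 0.05 there were 4 of the 10 members, beside 8532 of all 19926 genes, so the members do not stand out. These were Per2 (adjusted p = 0.0558), Cry2 (0.0591), Arntl (0.0674) and Per1 (0.0851). Per1 and Per2 were lowest in replicate 2 of both groups, and Cry2 and Arntl were highest in replicate 1 of both. Other settings called from 0 to 4 members. The 4 came with trend and robust variance, which called 6127 of all 19926 genes. With all 35544 probe sets in the fit, which changes both the variance prior and the number of tests, none passed (lowest adjusted p = 0.0779, 11621 with an unadjusted p under 0.05).

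Over the 6 arrays Pearson's r exceeded 0.8 for 5 of the 45 pairs of members, as a description only, since the arrays share the group difference and the replicate numbers. The pairs were Per1 with Per2 and Nr1d1 with Nr1d2 (0.95 each), Arntl with Cry2 (0.89), Clock with Dbp (0.89) and Per3 with Nr1d1 (0.84), and the lowest r was -0.34. The 5 genes most like Dbp by r over the 6 arrays were Gulp1, Stx17, Camsap2, D3Ertd751e and Wdr41, with r from 0.991 to 0.999. They are the highest of all genes tested over only 6 arrays, so such r can arise by selection. Their log2 differences ran from -0.91 to -0.10, and only D3Ertd751e was called lower (limma adjusted p = 0.0188).

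Other genes of the same arrays describe the treatment and the cells. All 12 measured TNF response genes, such as the NF-kB inhibitor Nfkbia at 3.35, rose at an adjusted p under 0.05 (limma), beside 3.87% of all genes. This list was chosen with earlier results of these data known, so its count is a description and no independent check of the treatment. Of 10 astrocyte markers 9 had log2 signals from 9.08 to 12.80 on every array and S100b was lower, from 5.89 to 6.74. The astrocyte markers went both ways, with a median difference of -0.46. Aldoc, Glul and Gja1 were lower without the block (log2 differences from -1.01 to -0.88), beside 3.33% of all genes; with it 6 of 10 were lower and 2 higher, beside 11.8% and 9.73%, the higher ones being Aqp4 (0.60, adjusted p = 0.0069) and Slc1a2 (0.60, adjusted p = 0.0123). In cultures fewer astrocytes and less RNA per astrocyte cannot be told apart. Mean log2 signals of the 14 microglia markers ran from 6.38 to 7.70 over controls and from 6.52 to 7.70 over TNF samples. They were lowest in replicate 2 of both groups. In the F test of the replicate number 12 of 14 passed, beside 23.0% of all genes. Between TNF and control none was called without the block. Cd68, Itgam and C1qb were higher with it, beside 9.73% of all genes. For the 10 neuron markers the ranges were 6.84 to 7.10 and 6.77 to 7.07, for the 9 oligodendrocyte lineage markers 7.75 to 7.83 and 7.60 to 7.72, for the 8 endothelial markers 6.14 to 6.42 and 5.94 to 6.40, for the 10 fibroblast and mural markers 7.64 to 8.10 and 7.47 to 8.04, and for the 6 ependymal markers 7.12 to 7.69 and 7.14 to 7.40. These means hide brighter members. In the same order of lists, the highest single signals were Map2 at 10.94, Olig1 at 11.52, Kdr at 7.49, Acta2 at 13.46 and Foxj1 at 10.36, all in control samples. Single members of 4 of these lists were called lower without the block, beside 3.33% of all genes, and none was called higher. They were Map2 (-1.22, limma adjusted p = 0.00349), Olig1 (-1.21, adjusted p = 0.00786), Kdr (-0.91, adjusted p = 0.0105) and Acta2 (-0.96, adjusted p = 0.0174). With the block 2 neuron, 2 fibroblast and mural, 2 ependymal, 1 oligodendrocyte lineage and 1 endothelial marker were lower, beside 11.8% of all genes. Higher with it was 1 neuron marker, beside 9.73%. Cell cycle genes were below 0 in 17 of 17 members (median difference -0.67), beside 50.6% of all genes. None passed without the block, and 7 were lower at an unadjusted p under 0.05, beside 1938 of all 19926 genes. With the block 14 were lower, beside 11.8% of all genes. The part of these lists in the clock gene differences was not tested.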

How the data were processed

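Gene expression was measured on 6 Mouse Gene 1.0 ST arrays. Per the submitters' processing notes, the deposited log2 values were made with RMA (background correction, quantile normalization, probe summary), and limma is named; the sources used here give no versions or detection calls, and the log base was read from the values. RMA draws in large folds, so folds tend to be understated.

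The platform annotation gave exactly 1 gene symbol to 21777 of 35544 probe sets, and the one with the highest mean was kept for each of 19926 genes. Each clock gene had 1 probe set. TNF and control were compared by lmFit and eBayes of limma 3.58.1 under R 4.3.3, without a block, two-sided, with Benjamini-Hochberg adjustment over all genes tested and a threshold of 0.05. The residual degrees of freedom were 4 and the prior added 3.70. Replicate numbers come from the sample titles; over all genes, same-numbered samples deviated together (r = 0.55, 0.65 and 0.75), which pairs them on the data alone, and a fit with the number as a block is given beside results it changed. Scripts were tested on simulated data. Python 3.11.15 with pandas 2.3.3 and matplotlib 3.10.9 prepared tables and plots.

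Named were all 10 clock genes and, from each related list, up to 6 genes passing either fit by smallest p; other genes are named for their role or position and were chosen after their values were seen. The members and lists were chosen with earlier results of these data known, so no p-value is adjusted over a list alone. Alternatives were other scalings, variance models, filters, thresholds, probe sets, blocks and arrays left out. No genome was used, and promoter sequences and their positions are RefSeq's.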

Additional observations from a re-analysis of the deposited data

How the results depend on the processing

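The median difference of the clock genes ran from -0.35 to -0.23 over the fits without an array or a pair, and stayed between -0.32 and -0.28 under the other alternatives. The fixed replicate block called 1938 genes higher and 2351 lower (random block 2231 and 2471), with 5 clock genes lower in both, 2 coactivators lower in both, kinases 1 higher and 1 lower (2 with the random block), outputs 2 lower (3), and cAMP and glucocorticoid genes 6 lower in both. The calls of Nr1d1 and Per3 did not hold at an adjusted p under 0.01 or with a log2 size limit of 1, which left 0 clock genes; 1 was left after centring or with the probe set of highest variance and 0 with all probe sets. At an adjusted p under 0.01 there were 386 higher and 195 lower genes, and at the size threshold 365 and 200; the accessory factors then had 1 higher and 1 lower, the outputs 1 higher and 0 lower, and the cAMP and glucocorticoid list 0 and 1 lower. All probe sets in the fit gave 369 lower genes, 1 higher accessory factor, 0 lower outputs and 0 lower cAMP and glucocorticoid genes. Under quantile normalization, the filter on dim genes, trend and robust variance, or array weights, 1 coactivator was lower. Outputs had 2 lower after quantile normalization, and the cAMP and glucocorticoid list 6 with array weights. Lower genes over all were then 841, 837 (of those kept), 801 and 973, in the order of these 4 settings, beside 663 without them. The F test of the replicate number called 2513 genes after quantile normalization and 56 at an adjusted p under 0.01. It called 268 with a size threshold and 0 with all probe sets. After centring it called 5262 genes, with trend and robust variance 6127, with array weights 4380, and without dim genes 3064 of those kept. Clock genes called were 1 after centring, 2 after quantile normalization and 3 without dim genes. There were 4 with trend and robust variance and 1 with array weights.

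Without single arrays or pairs, 273 to 669 genes were higher and 106 to 455 lower, 0 to 1 clock genes lower, 1 to 2 accessory factors higher and 0 to 3 lower, 1 to 3 outputs higher and 0 to 1 lower, and 0 to 2 cAMP and glucocorticoid genes lower. The fits without a pair kept 2 arrays a group. For 28 named genes, 429 of 557 alternative values kept their direction and side of the threshold, 91 lost a call and 37 gained it, and the cause was not tested. No called gene changed sign.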
